A study of Mus musculus with 10 samples.

Results

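Cytosolic ribosomal protein mRNAs were followed in primary mouse spleen T and B lymphocytes in which CRISPR interference was aimed at Pou2f1. The members are the 95 of 56893 gene rows whose symbol names a protein of the cytosolic ribosome (Rps or Rpl with a number, Rplp0, Rplp1, Rplp2 or Rpsa), without S6 kinases and rows marked as pseudogenes. They comprise 77 core genes, 31 of the small and 46 of the large subunit. Another 17 are copies or paralogs, and 1, Rps19bp1, is no ribosomal protein. Fau and Rack1 also encode ribosomal proteins, but their symbols fall outside this rule.

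The 5 groups comprised T cells carrying sgRNA-P1 and mock T cells, together with B cells carrying sgRNA-P1, B cells carrying sgRNA-P2 and mock B cells. Each guide targets one promoter of Pou2f1, P1 or P2, the gene that encodes the octamer-binding factor Oct-1. CRISPR interference uses a catalytically dead Cas9 to repress a promoter. Poly(A) RNA was sequenced. The sources used here do not give how cells were selected, how long guides acted, or the strain, age and number of animals.

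A ribosome is built from ribosomal RNA and many proteins, most of them present once, in a small subunit that reads the mRNA and a large subunit that joins amino acids. Ribosomal protein mRNAs are abundant and short, and most begin with a run of pyrimidines, the TOP motif, through which mTOR and LARP1 control their translation and stability together. Resting lymphocytes keep small ribosome pools and enlarge them when they are activated.

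Within each group the 2 deposited columns differed by less than sampling noise allows and were counted as 1 sample, so that each group is 1 library. The summed libraries held 28118839 to 71858511 assigned reads. Pou2f1 was at 66.1 CPM (reads scaled to a common library total) in T cells with sgRNA-P1, against 138 CPM in mock T cells. It was at 91.1 CPM with sgRNA-P1 and 86.5 CPM with sgRNA-P2 in B cells, against 157 CPM in mock B cells. T cell markers summed to 5861 and 5933 CPM in the T libraries and to 224 to 231 CPM in the B libraries. Of these 12 markers only Cd2 and Lck reached 5 CPM in the B libraries. Cd2 had the smallest difference of the 12 between mock T and mock B cells, 1.01 on the log2 scale. B cell markers summed to 37.2 and 40.5 CPM in the T libraries and to 13938 to 14157 CPM in the B libraries, and myeloid markers to 9.19 to 18.5 CPM in all. Comparisons of 2 libraries have no replicate check and no test, and their intervals are 95% counting intervals, which cover counting error only. In bulk RNA, fewer cells of a type and less RNA per cell cannot be told apart.

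Ribosomal protein mRNA made up more of the reads in T than in B libraries, and less in B cells with a guide than in mock B cells. Core genes took 7.18% of assigned reads in T cells with sgRNA-P1, against 6.90% in mock T cells. In B cells they took 4.41% with sgRNA-P1 and 4.77% with sgRNA-P2, against 5.17% in mock B cells. All 5 shares were apart by more than their exact binomial 95% intervals, of which the widest ran from 7.17 to 7.19%. Small subunit genes held 47.2% of core reads in T cells with sgRNA-P1, against 46.7% in mock T cells. In B cells they held 45.8% with either guide, against 46.1% in mock. Both subunits thus stood in the same order of libraries.

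**Figure D1:**
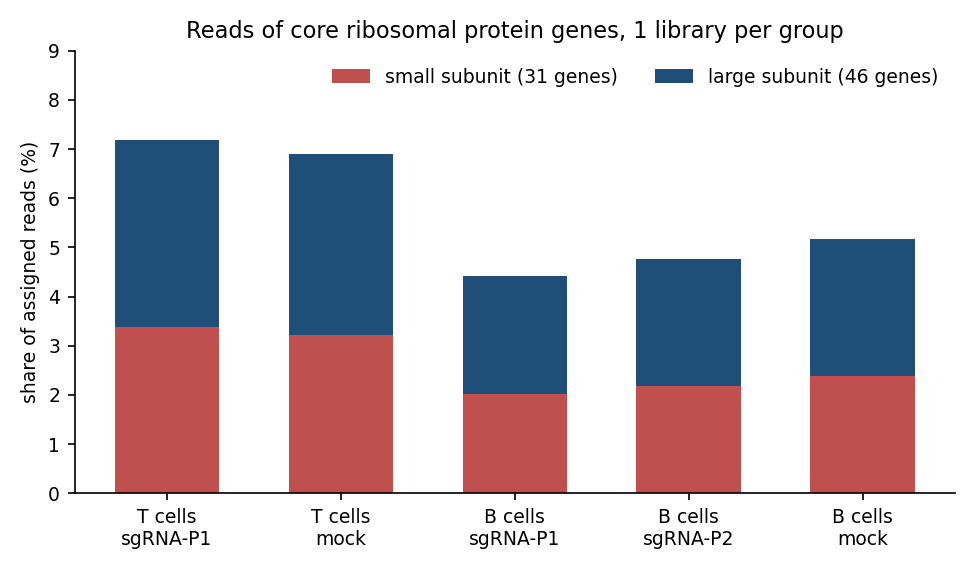
Share of assigned reads (%) from the 31 small subunit and 46 large subunit core genes in each summed library, 1 library per group, so no bar carries a replicate error. The bars reach 7.18 and 6.90% in the T libraries and 4.41, 4.77 and 5.17% in the B libraries.

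Of the 95 members, 92 had reads. Rps12l1, Rps23rg1 and Rpl10l were at 0 in all libraries. The filter of 5 CPM in the higher library kept 84 members in each comparison, 76 of them core. Rpl24, a protein of the large subunit, was the core gene that did not reach it, at 4.41 CPM in T cells with sgRNA-P1, 3.16 CPM in mock T cells, and 2.78, 3.09 and 3.02 CPM in B cells with sgRNA-P1, with sgRNA-P2 and mock. Core genes differed widely in level. Per kilobase of transcript, the highest mean over the 5 libraries was that of Rps27 (2354 CPM per kb), followed by Rplp1 of the lateral stalk (2160), Rps15 (1885), Rps4x (1815), Rps3a1 (1609) and Rps9 (1551). At the low end were Rpl24 (4.86 CPM per kb), Rps10 (11.2) and Rpl13a (21.7), while the next core gene, Rps20, had 190 CPM per kb. Rps20 was at 546 to 860 CPM over the 5 libraries, scaled by a transcript of 3706 bases with 357 coding bases. These levels are uncertain, because 62 of the 77 core genes also have named pseudogene rows and the sources used here do not say how reads that match several places were treated. Rows named as Rps10 pseudogenes show this: Rps10-ps2 alone held 130 CPM in T cells with sgRNA-P1, against 6.01 CPM for Rps10 itself. Rpl24 and Rps20 have 0 named pseudogene rows.

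Comparison of T with B libraries asked whether the cell types differ in ribosomal protein mRNA, and set 2 T against 3 B libraries in edgeR's quasi-likelihood model with cell type and guide as terms. Of 90 members tested, 82 were higher in T cells at an adjusted p under 0.05 and 4 were lower, where 33.1% of all 17581 genes tested were higher and 31.1% lower (64.1% in either direction). Among core genes 75 of 77 rose, 30 of 31 in the small and 45 of 46 in the large subunit, with a median log2 fold change of 0.49 over core genes against 0.02 over all genes. Both T libraries lay above all 3 B libraries for the same number of core genes, 75, and for 39.6% of all genes tested. Of the 12 copies tested 7 had both T libraries above all B libraries, and 3 had both below, against 36.8% of all genes. Rps10 (log2 fold change 0.12, adjusted p = 0.484) and Rpl24 (0.37, adjusted p = 0.0874) did not pass. The model assumes that the guides act alike in T and B cells, so a guide difference between cell types enters these values. Between the mock libraries alone the core median was 0.34, and Rpl37a, called here at 0.30, was at -0.02.

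**Figure D2:**
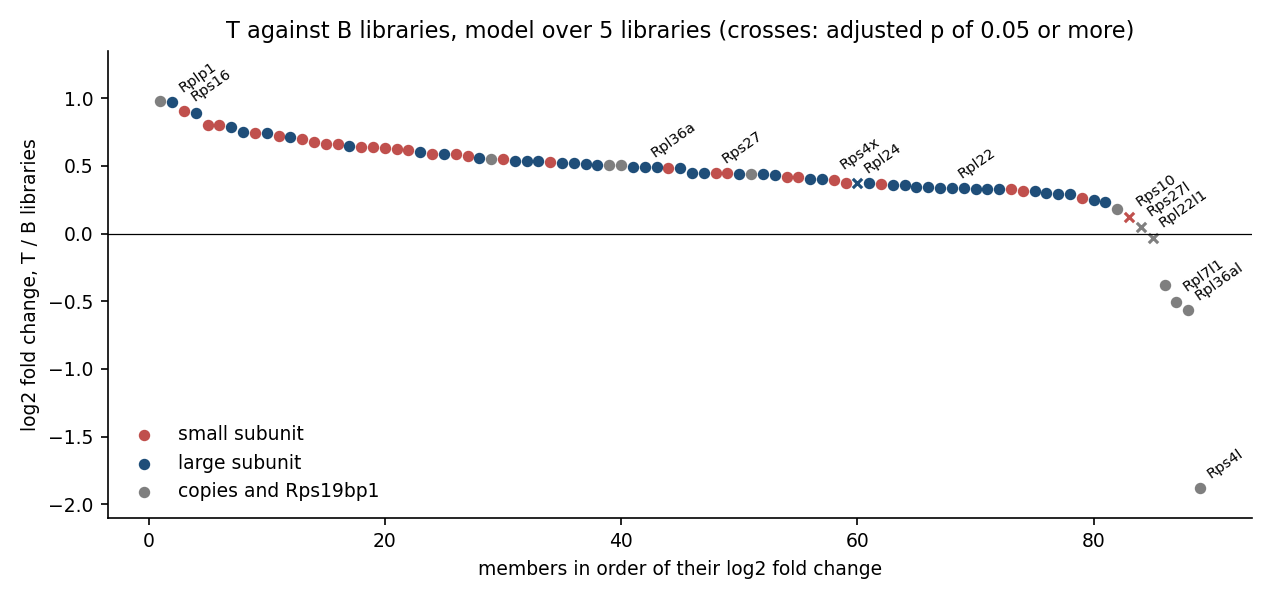
Log2 fold change of each member in T over B libraries from the edgeR model over 5 libraries, ordered from highest to lowest, with crosses for members at an adjusted p of 0.05 or more. The plot leaves out Rpl39l (3.65), a copy with few reads. Core genes lie between 0.12 and 0.97, and the 4 members that passed below 0 are copies and Rps19bp1.

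The acidic stalk of the large subunit, which recruits and activates the elongation factors, had 3 of the larger differences. Rplp0, the base of the stalk, was at 2126 CPM in T cells with sgRNA-P1 and 2186 CPM in mock T cells, against 1183, 1244 and 1296 CPM in B cells with sgRNA-P1, with sgRNA-P2 and mock. The T and B values did not overlap, and the log2 fold change was 0.79 (edgeR adjusted p = 2.81e-09). Its partner Rplp1 was at 1595 and 1468 CPM in the same T libraries, against 670, 773 and 882 CPM in the B libraries (0.97, adjusted p = 4.92e-08 in edgeR). The third stalk protein, Rplp2, rose by 0.89 (adjusted p = 8.65e-08 in edgeR). In the stalk all 3 genes had every T library above every B library, as had 75 of 77 core genes and 39.6% of all genes tested.

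Rps16, a small subunit protein that reaches toward the decoding site, was at 1247 CPM in T cells with sgRNA-P1 and 1252 CPM in mock T cells, against 589, 670 and 723 CPM in B cells with sgRNA-P1, with sgRNA-P2 and mock. Its log2 fold change was 0.90 (adjusted p = 6.93e-09 in edgeR), and no B library came near the T values. Rpl5 and Rpl11 form, with a small ribosomal RNA, the particle that can bind Mdm2 and stabilise p53. Rpl5 rose by 0.74 (adjusted p = 8.03e-09 in edgeR) and Rpl11 by 0.43 (adjusted p = 1.02e-05). Rps6, the S6 kinase substrate, rose by 0.62 (adjusted p = 2.88e-08 in edgeR). Rpsa, also described as a laminin receptor, rose by 0.64 (adjusted p = 4.20e-08 in edgeR), and Rpl12, which supports the stalk, by 0.75 (adjusted p = 4.08e-08). The called core genes with small differences included Rpl35 (0.25) and Rpl37a (0.30, adjusted p = 0.0117 in edgeR, the highest among called core genes).

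Between the mock libraries alone, mock T cells had 55 of 84 members higher than mock B cells by 1.2-fold or more, where 31% of 10804 genes were, and 3 lower by that size, where 29.4% were. The 3 lower ones were Rpl7l1, Rps19bp1 and Rpl22l1. With a trend on length and GC content subtracted, Rpl22l1 was at 0.55 (transcript length) or 0.77 (coding length), and Rps19bp1 at 0.13 (coding length). At 1.5-fold or more 9 members were higher, against 18.6% of genes, and the background for lower was 18.4%. Of the 84 members 79 were higher at any size, against 51.7% of genes, and 5 were lower, against 48.3%. Counting intervals lay above 0 for 76 members, against 40.1% of genes. The core median log2 fold change was 0.34, at the 73.0 percentile of all genes, and 0.61 or 0.99 with these trends subtracted. Summed small subunit reads were 34.5% higher in mock T cells and summed large subunit reads 31.5% higher. Rpl37a (-0.02) and Rps10 (-0.11) were the core genes that were not higher in mock T cells. With its named pseudogene rows added, Rps10 was at 0.43.

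Of the 12 copies tested 7 rose in T libraries, among them Rpl37rt (0.44), Rps27rt (0.51) and Rps3a3 (0.50), and 3 fell. Of all genes tested 33.1% rose and 31.1% fell. The parent genes of the 3 copies that fell rose. Rpl7l1, a paralog of Rpl7, was at 54.5 CPM in T cells with sgRNA-P1 and 53.3 CPM in mock T cells, against 71.9, 77.3 and 79.5 CPM in B cells with sgRNA-P1, with sgRNA-P2 and mock. It fell by 0.50 on the log2 scale (adjusted p = 2.63e-06 in edgeR), while Rpl7 rose by 0.33 (adjusted p = 3.42e-05). Rps4l, a copy of Rps4x with 1 annotated exon, was at 0.476 and 0.790 CPM in the T libraries with sgRNA-P1 and mock, against 2.30, 2.28 and 2.34 CPM in the B libraries (-1.88, adjusted p = 3.02e-05 in edgeR). Rps4x itself rose by 0.40. Rpl36al fell by 0.56 (adjusted p = 0.0234 in edgeR), with 1.73 to 3.07 CPM over the 5 libraries, and Rpl36a rose by 0.49. Rps19bp1, whose product binds Rps19 and has been described as a regulator of SIRT1, fell by 0.38 (adjusted p = 0.00859 in edgeR). Without the mock T or the mock B library neither Rpl36al nor Rps19bp1 was called, and DESeq2 did not call Rpl36al. Reads of such copies may be split from their parents in a way that the sources used here do not give.

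Rpl22 and its paralog Rpl22l1 are known in the mouse for roles in T cell development. Rpl22 rose by 0.33 (edgeR adjusted p = 6.08e-04) and Rpl22l1 did not pass (-0.03, adjusted p = 0.760). Rpl22l1 made up 19.8 and 19.0% of the pair's level per kilobase in T cells with sgRNA-P1 and mock T cells. In the B libraries its part was 23.7% in all 3. Rpl39l, the paralog of the exit tunnel protein Rpl39 known from testis, had 0.651 and 0.652 CPM in the T libraries with sgRNA-P1 and mock, against 0.104 and 0.0356 CPM in B cells with sgRNA-P1 and sgRNA-P2 (adjusted p = 3.76e-04 in edgeR). It had no read in mock B cells, where 3 reads would be 0.0887 CPM.

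In B cells with sgRNA-P1, nearly all ribosomal protein mRNAs were slightly lower than in mock B cells. At least 1.2-fold lower were 27 of 84 members, where 5.46% of 10062 genes were, and 0 members were at least 1.2-fold higher, where 5.18% were. At 1.5-fold 0 members were lower, against 0.258% of genes, and 0 higher, against 0.477%. Below mock at any size were 82 of 84 members, against 52% of genes, and 2 were above, against 48%. The counting interval lay below 0 for 75 members, against 15.6% of genes, and above 0 for 1, against 17.7%. The median log2 fold change was -0.25 over small subunit core genes and -0.21 over large subunit core genes, against -0.01 over all genes. Summed core reads were at -13.2%, with -13.8% for the small and -12.7% for the large subunit.

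**Figure D3:**
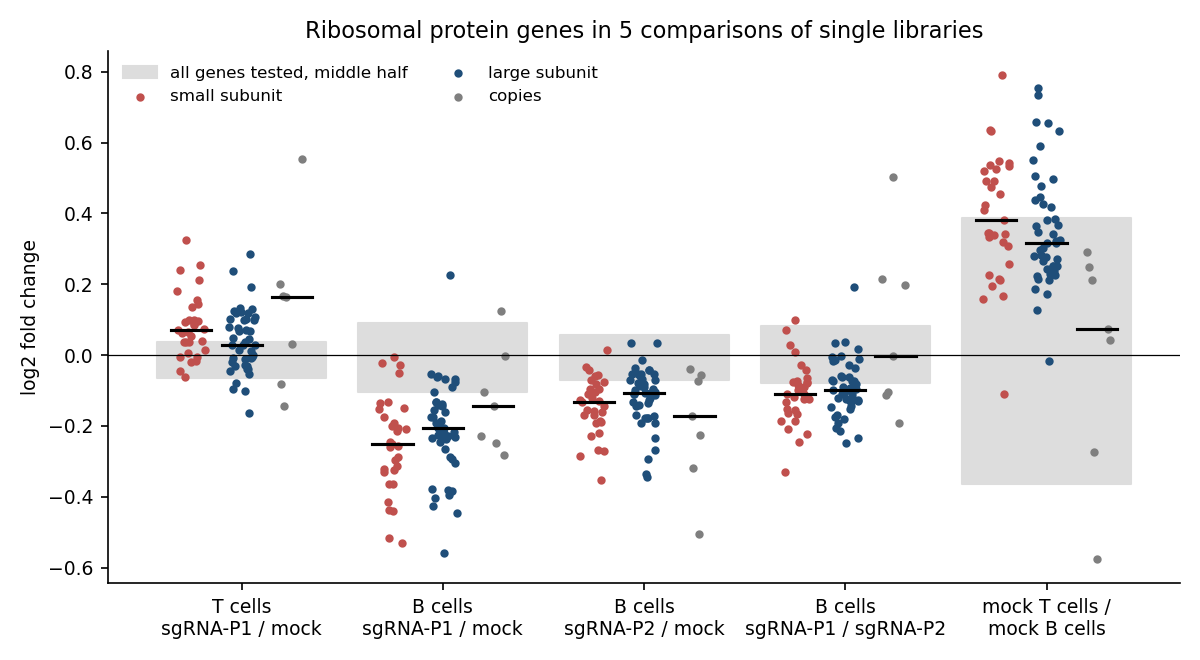
Log2 fold change of each member at 5 CPM or more in 5 comparisons of single libraries, with black lines at the median of each class and grey bands from the lower to the upper quartile of all genes tested. The core medians are 0.05 for sgRNA-P1 in T cells, -0.22 and -0.11 for sgRNA-P1 and sgRNA-P2 in B cells, -0.10 between the guides and 0.34 between mock T and mock B cells.

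Rpl37a, a zinc-binding protein of the large subunit, was lowest against mock, at 346 CPM in B cells with sgRNA-P1, against 510 CPM in mock B cells (-0.56, interval -0.60 to -0.51). Rps21, one of the smallest proteins of the small subunit, was at 169 CPM in B cells with sgRNA-P1, against 244 CPM in mock B cells (-0.53, interval -0.59 to -0.47). Rps19, whose human counterpart is mutated in Diamond-Blackfan anaemia, was at 516 CPM with sgRNA-P1, against 739 CPM in mock B cells (-0.52, interval -0.55 to -0.48). All 3 intervals lay below 0, and all 3 genes were also lower in B cells with sgRNA-P1 than with sgRNA-P2. Rpl39 (-0.45), Rps29 (-0.44), Rpl38 (-0.43) and Rps14 (-0.41) came next among the abundant core genes. Rps10 (-0.44) was at only 4.61 CPM with sgRNA-P1, against 6.24 CPM in mock B cells.

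A few members did not share this difference. Rps6 was at 905 CPM in B cells with sgRNA-P1, against 908 CPM in mock B cells (-0.00, interval -0.03 to 0.03). Rpsa was at 1830 CPM with sgRNA-P1, against 1859 CPM in mock B cells (-0.02), and Rps26, which contacts mRNA near the exit channel, was at -0.03. Rpl35, which sits at the mouth of the exit tunnel, was the one core gene above mock, at 204 CPM with sgRNA-P1, against 174 CPM in mock B cells (0.23, interval 0.16 to 0.29). The copy Rpl6l was at 0.13, with an interval that included 0.

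In B cells with sgRNA-P2 the differences from mock had mostly the same sign and were smaller. Of 84 members 10 were at least 1.2-fold lower, where 3.22% of 10061 genes were, and 0 were at least 1.2-fold higher, where 2.38% were. With trends on merged exon length, on transcript length and GC content, or on coding length and GC content subtracted, 5, 5 and 3 members were lower by that size. The share of all genes with these trends subtracted is not given here, so these 3 counts have no background. At 1.5-fold 0 were lower, against 0.149% of genes, and 0 higher, against 0.129%. Below mock at any size were 81 members, against 51.6% of genes, and 3 were above, against 48.4%. Counting intervals lay below 0 for 68 members, against 6.37% of genes, and above 0 for 0, against 5.19%. The medians were -0.13 for the small and -0.11 for the large subunit, against -0.00 for all genes, and summed core reads were at -7.77%. Rps29 was at 356 CPM with sgRNA-P2, against 454 CPM in mock B cells (-0.35, interval -0.40 to -0.30). Rpl37a was at 402 CPM with sgRNA-P2, against 510 CPM in mock B cells (-0.34). Rps3a3, a copy with few reads, had the lowest value (-0.50), at 4.20 CPM with sgRNA-P2, against 5.97 CPM in mock B cells. Both B comparisons share the mock B library, so that a feature of that 1 library would enter both.

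Between the guides, without the mock library, B cells with sgRNA-P1 were lower than B cells with sgRNA-P2 for 73 of 84 members, against 50.6% of 10059 genes, and higher for 11, against 49.4%. Counting intervals lay below 0 for 58 members, against 9.53% of genes, and above 0 for 5, against 13.7%. At least 1.2-fold lower was 1 member, where 3.08% of genes were, and at least 1.2-fold higher was 1, where 4.02% were. At 1.5-fold 0 were lower, against 0.119% of genes, and 0 higher, against 0.298%. The member at least 1.2-fold lower was Rps19, at 516 CPM with sgRNA-P1, against 649 CPM with sgRNA-P2 (-0.33, interval -0.37 to -0.29), and the higher one was the copy Rps3a3. The core median was -0.10, against -0.00 over all genes. Rpl9 (-0.25), Rps21 (-0.24), Rpl30 (-0.23), Rps14 (-0.22) and Rpl37a (-0.22) followed Rps19.

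Mitochondrially encoded genes mostly moved in the opposite direction in the same libraries. Their share of B cell reads was 3.79% with sgRNA-P1 and 2.85% with sgRNA-P2, against 2.54% in mock B cells. The 13 of their 37 rows that passed the filter had medians of 0.63 with sgRNA-P1 and 0.18 with sgRNA-P2. All 13 were above mock with sgRNA-P1, and with sgRNA-P2 11 were above and 2 below. With mitochondrial reads taken out of the total, core genes held 4.58 and 4.91% of reads in B cells with sgRNA-P1 and sgRNA-P2, against 5.31% in mock B cells. The part of mitochondrial reads in the differences of single members was not tested.

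In T cells with sgRNA-P1 the members were mostly close to mock or slightly above it. At least 1.2-fold higher than in mock T cells were 3 of 84 members (Rps27rt, Rps29 and Rpl39), where 1.21% of 10007 genes were, and 0 were at least 1.2-fold lower, where 1.26% were. At 1.5-fold 0 were higher, against 0.06% of genes, and 0 lower, against 0.05%. Above mock at any size were 58 members, against 41.4% of genes, and 26 were below, against 58.6%. Counting intervals lay above 0 for 48 members, against 4.37% of genes, and below 0 for 11, against 10.4%. The medians were 0.07 for the small and 0.03 for the large subunit, against -0.02 over all genes. Rps29 was at 742 CPM in T cells with sgRNA-P1, against 592 CPM in mock T cells (0.32, interval 0.29 to 0.35). Rpl39 was at 499 CPM with sgRNA-P1, against 409 CPM in mock T cells (0.29, interval 0.25 to 0.32). Rps27, a small subunit protein with a zinc finger, was at 1053 CPM with sgRNA-P1, against 882 CPM in mock T cells (0.26). Rps27rt, a copy of Rps27 with 1 annotated exon, was at 11.5 CPM with sgRNA-P1, against 7.82 CPM in mock T cells (0.55, interval 0.29 to 0.81). Whether its reads come from Rps27 was not tested. At the other end Rpl27 was at 343 CPM with sgRNA-P1, against 383 CPM in mock T cells (-0.16, interval -0.20 to -0.12).

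The sgRNA-P1 differences in T and in B cells share no library, and they can be set side by side. Of the 84 members, 58 (69.0%) were higher than mock in T cells and lower than mock in B cells, against 21.7% of the 9139 genes tested in both. The members that lay furthest up in T cells tended to lie furthest down in B cells: Spearman's rho between the differences was -0.56 across 76 core genes and -0.01 across 9055 other genes. These coefficients are descriptions across genes of the same 4 libraries, and genes are not independent replicates. Rps29, Rpl39 and Rps21 were among the 4 highest core genes in T cells and among the 5 lowest in B cells. Rpl35, Rpsa and Rps6, the 3 highest core genes in B cells, were at -0.08, -0.06 and -0.04 in T cells.

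**Figure D4:**
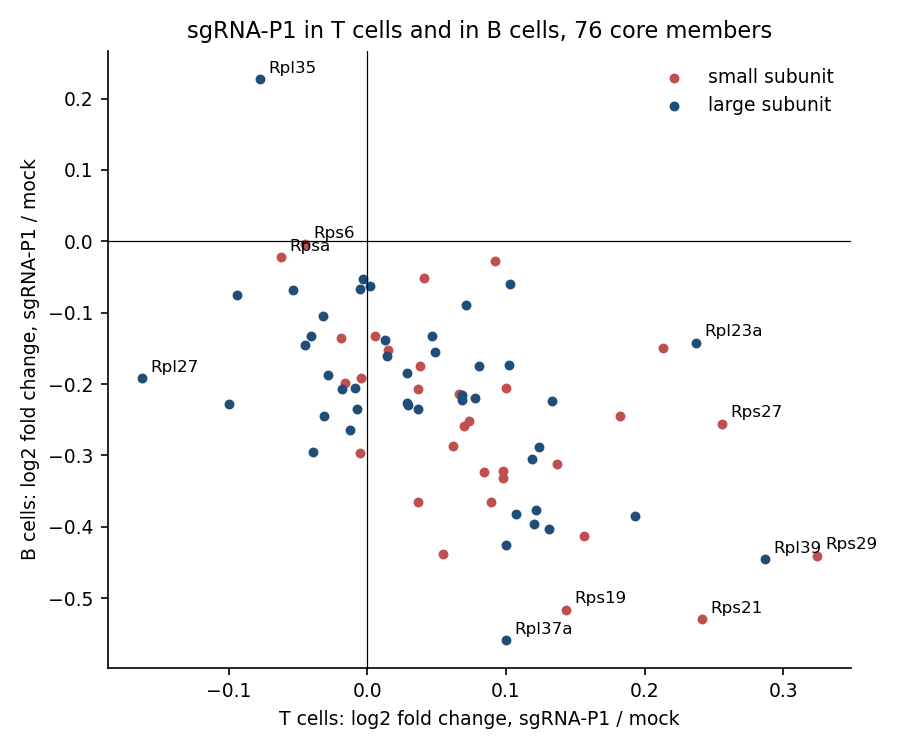
Log2 fold change of sgRNA-P1 over mock in T cells (horizontal) and in B cells (vertical) for 76 core genes, each point 1 gene and each axis 1 pair of libraries. Points run from Rpl35 at the upper left to Rps29, Rpl39 and Rps21 at the lower right, with a Spearman's rho of -0.56.

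The length of the coding sequence went along with this order. Across 76 core genes, Spearman's rho of coding length with the log2 fold change was -0.50 for sgRNA-P1 in T cells, 0.42 for sgRNA-P1 in B cells and 0.45 for sgRNA-P2 in B cells. Across all other genes the same values were -0.18, 0.22 and 0.18. Core genes with a coding sequence of up to 456 bases had medians of 0.09, -0.26 and -0.17 in these comparisons, and longer core genes had 0.01, -0.19 and -0.10. Other coding genes that are as short had medians of 0.02, -0.08 and -0.04. Rpl39, with 153 coding bases, and Rps29, with 168, were at the short end, and Rpl4, with 1257, at the long end. Rpl41, at 75 coding bases the shortest, was at 0.07 for sgRNA-P1 in T cells and -0.22 for sgRNA-P1 in B cells. The GC content of transcripts had a rho of -0.12, -0.04 and 0.03 with the differences within core genes, and of -0.23, -0.50 and -0.16 across other genes. With a trend on transcript length and GC content, fitted on genes that are no members, subtracted, 14 members in B cells with sgRNA-P1 were at least 1.2-fold lower and the core median was -0.14. The share of all genes lower by that size with this trend subtracted is not given here. The part of RNA fragment length or library preparation in these values was not tested.

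**Figure D5:**
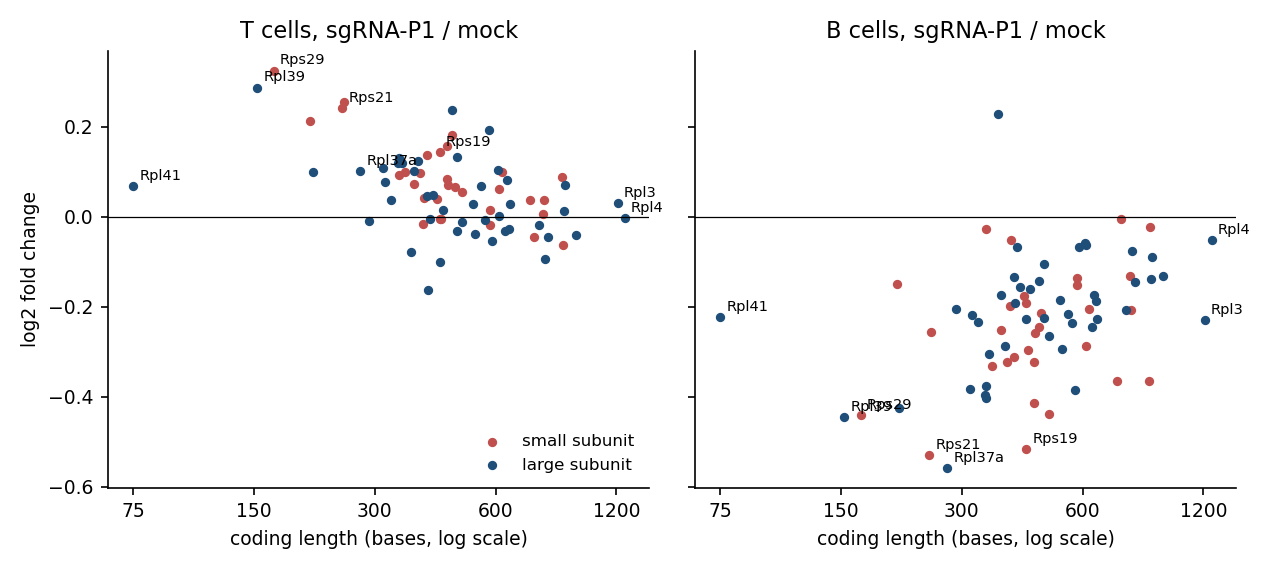
Coding length in bases (log scale) against the log2 fold change of sgRNA-P1 over mock in T cells (left) and B cells (right) for 76 core genes, 1 library per group. Several short genes, such as Rps29 (0.32 in T cells, -0.44 in B cells), lie far from 0, while Rpl4 lies at -0.00 and -0.05.

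The model over 5 libraries, with either guide set against mock in both cell types, called 0 members at an adjusted p under 0.05, where 0.0171% of 17581 genes were higher and 0.0114% lower (0.0284% in either direction). The lowest adjusted p among members was 0.999834 in edgeR, and 6 of 90 members had an unadjusted p under 0.05 (Rpl11, Rpl26, Rpl27, Rpl37, Rpl37a and Rpl38, all lower), as had 439 of 17581 genes. DESeq2 also called 0, with 4 of 92 members and 78 of 27860 genes under an unadjusted 0.05. This model assumes that the guides act alike in T and B cells, while many members had opposite signs in them. Without the mock T library, the guide term rests on the 3 B libraries alone, with 1 residual degree of freedom. Then edgeR called Rpl37a (-0.45, adjusted p = 0.0124), Rps29 (-0.40, adjusted p = 0.0208) and Rpl38 (-0.38, adjusted p = 0.0424) lower, among 6 lower and 3 higher of 18114 genes. Without the T library with sgRNA-P1, where the guide term rests on the same B libraries, it called 0 members.

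The promoters of the genes at either end of the B cell comparison are shown because Oct-1 binds octamer letters. RefSeq windows on GRCm38.p6, 250 bases before to 50 bases after a start, matched 57 core genes with 67 windows. The octamer ATTTGCAT, or ATGCAAAT on the other strand, was in 0 of the 67 windows and in 1.74% of all 32851 windows of this length. That says only that these letters are not in these windows. ETS core letters (CCGGAAG or CTTCCGG, both strands) were in 25 windows (37.3%), against 8.86% of all windows. A pyrimidine run (CTTTCC or CTTTTC, read in the direction of transcription) was in 37 (55.2%), against 23.4%, and TATAAA in that direction in 5 (7.46%), against 8.32%. Core genes with ETS letters had a median of -0.22 in B cells with sgRNA-P1, and those without had -0.19. Below are 100 bases before to 30 bases after the start, with ETS core, pyrimidine run and TATAAA letters in capitals. Genes were taken from those with exactly 1 window, so that Rps21 and Rps19, which have several starts, are not shown. First come the 4 of them that were lowest in B cells with sgRNA-P1:
Rpl37a (chr1:72711160-72711289, plus strand): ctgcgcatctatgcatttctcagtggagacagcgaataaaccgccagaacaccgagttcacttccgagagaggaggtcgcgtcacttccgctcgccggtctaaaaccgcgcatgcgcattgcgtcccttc
Rpl39 (chrX:37085193-37085322, minus strand): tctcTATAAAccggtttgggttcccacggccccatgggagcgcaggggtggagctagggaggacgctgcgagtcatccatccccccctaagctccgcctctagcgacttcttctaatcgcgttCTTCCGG
Rps10 (chr17:27635215-27635344, minus strand): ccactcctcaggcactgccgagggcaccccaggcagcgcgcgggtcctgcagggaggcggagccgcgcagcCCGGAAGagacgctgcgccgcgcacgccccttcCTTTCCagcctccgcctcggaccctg
Rpl38 (chr11:114668480-114668609, plus strand): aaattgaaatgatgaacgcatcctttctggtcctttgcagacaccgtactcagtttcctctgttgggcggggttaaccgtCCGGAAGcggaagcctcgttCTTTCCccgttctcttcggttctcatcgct
Next come the 4 of them that differed least from mock in the same comparison:
Rps6 (chr4:86857338-86857467, minus strand): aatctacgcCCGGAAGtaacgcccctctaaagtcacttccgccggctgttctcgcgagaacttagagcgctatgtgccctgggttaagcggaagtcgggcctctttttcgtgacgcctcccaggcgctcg
Rpsa (chr9:120127666-120127795, plus strand): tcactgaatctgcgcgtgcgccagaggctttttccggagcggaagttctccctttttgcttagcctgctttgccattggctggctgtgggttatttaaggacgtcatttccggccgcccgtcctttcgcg
Rps26 (chr10:128626477-128626606, minus strand): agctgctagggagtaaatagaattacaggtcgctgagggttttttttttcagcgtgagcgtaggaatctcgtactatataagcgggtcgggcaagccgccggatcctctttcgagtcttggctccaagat
Rpl4 (chr9:64173287-64173416, plus strand): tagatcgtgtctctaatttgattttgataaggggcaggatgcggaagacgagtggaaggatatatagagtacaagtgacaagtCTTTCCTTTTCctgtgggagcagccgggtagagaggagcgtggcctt
No capital letters occur in the windows of Rpl37a, Rpsa and Rps26, and ETS letters stand in windows of both sets (Rpl39, Rps10 and Rpl38 among the lowest, Rps6 among the least changed).

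Genes around the ribosome were compared with the members by lists. Of the ribosomal proteins outside the symbol rule, Fau, a fusion gene for a small subunit protein, was at 550 CPM in B cells with sgRNA-P1, against 716 CPM in mock B cells (-0.38). Rack1, a scaffold on the small subunit, was at 1210 CPM, against 1434 CPM in mock B cells (-0.25). Translation factors with TOP mRNAs, which share the members' translational control, had a median of -0.04 in B cells with sgRNA-P1, -0.02 with sgRNA-P2 and -0.02 in T cells with sgRNA-P1, over 15 genes. In B cells with sgRNA-P1, 0 of these 15 were 1.2-fold higher or lower, where 5.18% of all genes were higher and 5.46% lower by that size. Pabpc1, which binds poly(A) tails, was at 1322 CPM with sgRNA-P1, against 1115 CPM in mock B cells (0.25), and Eef1b2, an elongation factor subunit, was at 370 CPM, against 419 CPM (-0.18).

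Between cell types the TOP list stood with the members: 12 of 15 rose in T libraries, 1 fell and 2 did not pass (median 0.39, against 0.02 over all genes). Among all genes tested 33.1% rose and 31.1% fell. Tpt1, the growth-related TCTP, rose by 0.89 (edgeR adjusted p = 5.48e-10) and Eef1b2 by 0.87 (adjusted p = 1.43e-09). The histone chaperone gene Nap1l1 fell by 1.28 on the log2 scale (adjusted p = 2.66e-11 in edgeR). The counts of the next 3 lists stand against 33.1% of all genes higher and 31.1% lower. Of RNA polymerase I genes and their factors 7 of 14 rose and 1, Taf1a, fell. Of ribosome assembly factors 11 of 26 rose, among them Npm1 (0.49) and Rrp9 (0.52), and 5 fell, among them Pes1 (-0.44) and Sbds (-0.41). Of 13 tested regulators of TOP mRNAs and growth, 3 rose and 4 fell. Larp1, which binds TOP mRNAs, rose by 0.47 (edgeR adjusted p = 5.72e-07), while Myc, which drives ribosome production, fell by 1.40 on the log2 scale (adjusted p = 7.73e-12). In the guide term of the model 0 genes of these lists passed. In B cells with sgRNA-P1 the assembly factors had a median of -0.02, with Eif6, which keeps the subunits apart, lowest at 24.7 CPM, against 33.9 CPM in mock B cells (-0.46), and Npm1 highest (0.21).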

How the data were processed

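The authors deposited whole-number read counts per gene in 1 table with 10 columns. HISAT2, featureCounts and the builds hg38 and mm39 are named, per the submitters' processing notes. The sources used here do not give tool versions, annotation, strand setting or how multi-mapping reads were treated. All columns were used, and 0 columns of per-sample values were left out.

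The columns of a group had a mean chi-square per gene of 0.00231 to 0.00283, over genes with 20 or more reads, and their sum served as 1 sample. The tests across libraries were therefore limited to a model of 5 summed libraries. Nothing in the labels says that libraries come from separate animals, so p-values measure only the spread between these libraries.

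Counts were scaled by TMM (edgeR 4.0.16 in R 4.3.3; factors 0.982 to 1.01). Log2 fold changes used a prior of 1 read and a filter of 5 CPM in the higher library, with sizes of 1.2-fold and 1.5-fold. Exact conditional 95% intervals were computed on reads divided by 2, because 72 to 74.8% of summed counts under 10 were even once a read lost in the division was added back, as read pairs would give. The model was edgeR's quasi-likelihood test on terms for cell type and guide (2 residual degrees of freedom), adjusted by Benjamini-Hochberg over 17581 genes, with DESeq2 1.42.0 as alternative. Trends were fitted with mgcv 1.9.3. Coding length, transcript length and GC content came from GENCODE M21 (77 core genes matched). The procedures were tested on simulated data. No test over a list was made.

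The members and lists were chosen with earlier results of these data known. Genes named are the 6 members at either end of each comparison and of the level per kilobase, the 6 with the smallest p in each direction of the model, listed paralogs and members with known roles, and genes of the pathway lists. Rps20, Rpl4, Rpl24, Rpl37, Rpl37rt, Rpl41, Rps12l1 and Rps23rg1 were named after their values were seen. Alternatives were other scalings, priors, filters, single columns, left-out libraries, pseudogene reads added and length or GC trends.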

Additional observations from a re-analysis of the deposited data

Results flagged for a closer look

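The sgRNA-P1 library lay above mock in T cells and below mock in B cells for the medians of the core genes and for many members. The difference was not tested, because each value rests on 1 library per group. The difference in median log2 fold change, T cells minus B cells, was 0.27 for core genes, 0.32 for the small subunit and 0.24 for the large subunit.

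Counting intervals lay above 0 in T cells and below 0 in B cells for 46 of 84 members, against 121 of 9139 genes. They lay below 0 in both cell types for 9 members, against 196 genes. Listed next are only genes with counting intervals on opposite sides of 0 in T and B cells. They were chosen by the rule for named genes or named in the text. Named genes without opposite intervals are left out, such as Rpsa (-0.06 in T cells, -0.02 in B cells), Rplp0 (-0.04 and -0.13) and Rpl11 (-0.04 and -0.29). In the small subunit the differences were 0.77 for Rps21, 0.76 for Rps29, 0.66 for Rps19, 0.57 for Rps14, 0.51 for Rps27, 0.43 for Rps20, 0.43 for Rps27a, 0.40 for Rps3, 0.36 for Rps28 and 0.24 for Rps3a1. In the large subunit they were 0.73 for Rpl39, 0.66 for Rpl37a, 0.58 for Rpl9, 0.53 for Rpl30, 0.53 for Rpl38, 0.52 for Rplp1, 0.50 for Rplp2, 0.41 for Rpl22, 0.38 for Rpl23a, 0.30 for Rpl36a, 0.29 for Rpl41, 0.26 for Rpl3, 0.26 for Rpl10 and 0.16 for Rpl5. The copy Rpl22l1 had 0.48. Rpl35 had the opposite order, at -0.31, with the T library below mock and the B library above it.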

How the results depend on the processing

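With 1 library per group, differences between 2 libraries cannot be told apart from differences between preparations. No paired analysis was possible because the columns of a group are 1 library divided. With a trend on merged exon length, on transcript length and GC content, or on coding length and GC content (the last chosen after seeing the data) subtracted, the B cell sgRNA-P1 medians were -0.14, -0.14 and -0.13 for core genes, -0.19, -0.16 and -0.17 for the small subunit, and -0.13, -0.12 and -0.12 for the large subunit. The members at least 1.2-fold lower were 14 and 13 with the GC trends, against 27 without, and in B cells with sgRNA-P2 they were 5, 5 and 3, against 10. For counts with a trend subtracted, the share of all genes is not given here. At least 1.2-fold higher was 1 member in B cells with sgRNA-P1 under each trend, and 1 in T cells with the transcript trend. Between the guides the GC trends gave -0.0557 and -0.0524 for core genes, -0.0579 for the small subunit (transcript trend), and -0.0433 and -0.0394 for the large subunit, with 2 members higher under the transcript trend and 0 lower under the coding trend. Total-read scaling gave 3 lower. Between mock libraries the 3 trends gave 0.40, 0.61 and 0.99 for core genes, 0.73 and 1.06 for the small subunit (GC trends) and 0.36, 0.48 and 0.74 for the large subunit. Reversed were Rpsa in B cells with sgRNA-P1 (0.0768 and 0.0840 under the GC trends), Rpl22l1 between mock libraries (0.55 and 0.77) and Rps19bp1 (0.13, coding trend). The cause was not tested.

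With no filter on low values, 7 members were higher and 1 lower in T cells, 1 was higher in B cells with sgRNA-P1, 1 was higher with sgRNA-P2, 4 were higher and 2 lower between the guides, and 7 were lower between mock libraries. At 20 CPM 0 were higher between the guides. For these filters too, the share of all genes is not given here. Core shares without mitochondrial reads were 7.36 and 7.08% in T cells with sgRNA-P1 and mock, and 4.58, 4.91 and 5.31% in B cells with sgRNA-P1, with sgRNA-P2 and mock. With pseudogene rows added they were 7.29, 7.003, 4.48, 4.85 and 5.25% in the same order. In the model, leaving out 1 library at a time left 65 to 81 members higher and 2 to 5 lower in T libraries, and 4482 to 5924 of all genes higher and 4222 to 5314 lower, of 17123 to 18808 tested. The lower members were 2 without the mock T library and 2 without the mock B library, both times Rps4l and Rpl7l1. The guide term called 0 to 3 members lower when a library was left out, and 1, Rpl37a, without a filter. Its median over members was -0.07, and it was -0.16 without either T library, -0.02 without the B library with sgRNA-P1, -0.09 without that with sgRNA-P2 and 0.05 without the mock B library. DESeq2 called 76 members higher and 3 lower in T libraries, and 4728 and 4838 of 21223 genes.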

Other observations

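The table also holds 322 rows named as pseudogenes of ribosomal protein genes, of which 196 had reads. They summed to 1178 CPM in T cells with sgRNA-P1 and 1101 CPM in mock T cells, and to 761, 760 and 815 CPM in B cells with sgRNA-P1, with sgRNA-P2 and mock. The T libraries were thus above the B libraries here too, as for the core genes. Whether these reads come from mRNA of the parent genes was not tested, so the rows are no separate observation. Rpl3-ps1 held the most, with 292 and 284 CPM in T cells with sgRNA-P1 and mock, against 211, 193 and 209 CPM in the B libraries with sgRNA-P1, with sgRNA-P2 and mock.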
